A study of Danio rerio with 2 samples.

Results

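The genes described here are receptors and ligands of the Notch pathway in zebrafish, together with genes of the hairy-related her family. The receptor genes are notch1a, notch1b, notch2 and notch3, the ligand genes dla, dlb, dlc and dld, and the genes of the hairy-related family her6 and her9. A probe was taken where its gene name in the array annotation, or the symbol in parentheses in its description, was one of these 10 names. By this rule 9 of the 10 genes had a probe, and they held 11 of the 21495 gene probes on the array. The exception was notch2, for which no probe was found by the rule, and its RNA was not analysed here. The genes her6 and her9 had 2 probes each. The 11 probes were all among the 19284 that passed the filters and were tested, and 0 of them were saturated or carried an outlier flag.

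In the Notch pathway a Delta or Jagged ligand on one cell binds a Notch receptor on its neighbour. The receptor is then cut, and its intracellular part enters the nucleus, where with the DNA-binding protein Rbpj it turns on target genes, many of which encode basic helix-loop-helix repressors of the her, hes and hey families. In the zebrafish neural plate, cells with more Delta become neurons while their neighbours stay progenitors. In the tailbud the same pathway keeps neighbouring cells in step as the somites form, and the notch1a, dlc and dld genes were found as mutants with faulty somites.

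The mutant group consisted of whole embryos that carried the bw41c allele of gnl2 in both copies, and the other group of wild-type TL embryos, both collected at 22 hours post-fertilization. Heterozygous carriers were crossed to obtain the mutants, and 40 embryos went into each extract. Gnl2 is a nucleolar GTPase needed to make the large ribosomal subunit. RNA of both groups was put on each of 2 arrays, with the mutant in Cy5 (red) on array 1 and in Cy3 (green) on array 2. Every ratio below is mutant over wild type on the log2 scale, its sign turned for the dye swap, so that a value above 0 means more signal in the mutant. Whether mutant and wild-type embryos shared parents is not stated in the labels, so genotype and strain background cannot be told apart. The titles of the arrays bear the same closing number, and if the extracts were shared, p-values measure technical spread only. Array, dye orientation and slide cannot be told apart with 2 arrays. Because whole embryos were measured, fewer cells of a type and less RNA per cell cannot be told apart either.

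The log2 ratio of gnl2 itself was -0.99 on array 1 and -2.27 on array 2, at a single probe whose position relative to the lesion the labels do not give. Adjusted over all 19284 probes, the limma test called 0 at 0.05, and 632 had an unadjusted p under 0.05. Across all probes tested the turned ratios of the arrays were weakly and negatively correlated (Pearson r = -0.149, across probes, which are not independent replicates). Markers of 8 cell types were set beside the labelled whole-embryo tissue, each by its brightest probe that passed the filters. Of the tested markers 0 fell short of the background limit, which the filter on dim probes largely fixes in advance, so the count is no check of the tissue. Higher on both arrays, against 21.2% of all genes tested, were 5 of 7 skeletal muscle markers, 3 of 4 erythroid, 2 of 3 endothelial, 2 of 3 hatching gland and 0 of 6 epidermal markers. Lower on both, against 20.3%, were 3 of 6 epidermal markers and 1 hatching gland marker, ctslb, and 0 of the other 3 lists. The spots of ctslb and of 4 epidermal markers (krt4, krt5, krt8 and cyt1) were saturated in at least 1 channel.

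None of the Notch genes passed the test, and most of them pointed in opposite directions on the arrays. The limma test called 0 of the 11 probes at an adjusted p under 0.05, against 0% of all probes tested, and 1 of 11 had an unadjusted p under 0.05, against 3.28%. That one, of dld, was lower in the mutant, and 0 of 11 were higher, against 2.03%. A ratio of 2-fold or more in either direction was seen at 0 of the 11 probes on array 1, against 1.34% of all probes tested, and on array 2 the mutant was at least 2-fold higher at 1, that of notch3, against 0.301%. On both arrays together, 0 probes had a ratio above 0, against 21.4% of all probes tested. On both arrays 2 were below 0, those of dld and notch1b, against 20%. The other 9 probes were split between the arrays, against 58.6%. Of these, 8 were below 0 on array 1 and above 0 on array 2, against 27.5%, and only dla was split the other way, against 31.1%. The 8 held both probes of her6 and both of her9, so they stand for fewer than 8 genes. The mean ratios ran from -0.43 for dld to 0.71 for notch3, and 9 of the 11 lay within 0.2 of 0. Over all genes tested the median absolute mean was 0.0547, so means this near to 0 were common. The median over the 11 probes was -0.178 on array 1 and 0.0962 on array 2, where those over all probes tested were 0.00893 and -0.00344.

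**Figure D1:**
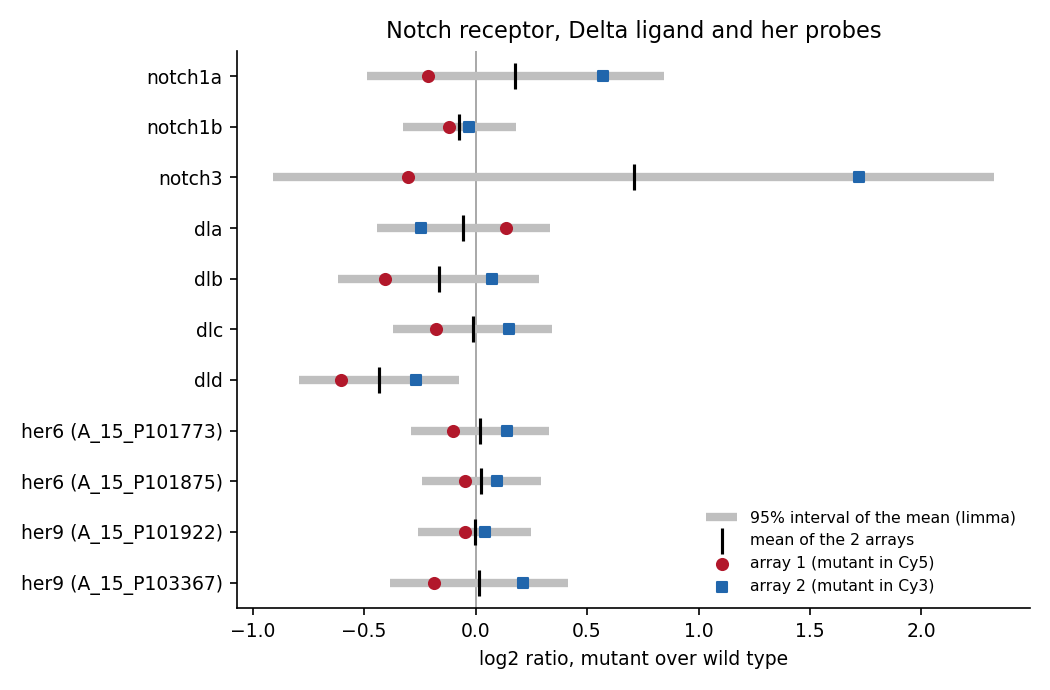
Log2 ratio of mutant over wild type (horizontal axis) for each of the 11 probes, with array 1 as red circles, array 2 as blue squares, their mean as a black bar and limma's 95% interval of the mean as a grey band. Both points lie below 0 only for dld and notch1b, and the points of notch3 are the farthest apart, at -0.30 and 1.72.

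The receptor gene notch3 had the largest ratio on any array and the widest gap between arrays among these genes. On array 1 the normalized intensity of its probe was 167 in the mutant and 207 in the wild type, and on array 2 it was 452 in the mutant and 137 in the wild type. The mutant was thus the lower of the pair on array 1 and the higher on array 2, where it was 3.30-fold above the wild type. The offset of 50 added to every background-corrected signal draws the fold of a dim spot toward 1 by construction, and Agilent's processed signals gave log2 ratios of -0.46 and 2.48. The log2 ratios were -0.30 and 1.72, with a mean of 0.71 ± 1.43 (SD, n = 2) and an adjusted p of 1.00 in limma. The 95% interval of the mean ran from -0.91 to 2.32, or from 0.533 to 5.01 as a ratio, so these arrays set no direction for notch3. A gap between arrays at least as wide was seen at 54 of the 19284 probes, or 0.28%, and a ratio at least as high on array 2 at 16 probes.

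The notch3 spot was well above background in both channels of both arrays. Its mean pixel signal before correction was 336 in the mutant channel of array 2 over a local background of 53, and the median pixel signal, 335.5, was close to that mean. In the wild-type channel of that array the mean signal was 182 over a background of 77. The 18 gene spots tested within 2 rows and columns of it had ratios between -0.53 and 0.47 on array 2, with a median of 0.01. Its neighbours on the slide thus did not share its ratio, and a fault of the single spot was not tested. Agilent's software gives each spot a p for its own array alone, with no account of the other array. By it notch3 had a p of 0.126 on array 1 and 4.22e-20 on array 2. At a p under 0.01 by that measure stood 1 of the 11 probes on array 1, that of dld, and 2 on array 2, those of notch3 and notch1a, against 7.32% and 6.11% of all probes tested. On both arrays in 1 direction the number was 0 of 11, against 0.69%.

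The gene notch1a, known from the somite mutant des, had the same order of signs as notch3. Its normalized intensities were 518 in the mutant and 601 in the wild type on array 1, and 947 and 637 on array 2. The log2 ratios of -0.21 and 0.57 had a mean of 0.18 ± 0.56 (SD, n = 2), with a 95% interval from -0.49 to 0.84 (adjusted p = 1.00 in limma). A gap at least this wide was seen at 4.32% of the probes tested. A probe outside the rule, described as the zebrafish Notch 1 protein, did not share the rise on array 2, where it had -0.16. The paralog notch1b gave nearly the same intensities in both genotypes, 241 in the mutant and 262 in the wild type on array 1 and 331 and 337 on array 2. The log2 ratios were -0.12 and -0.03, with a mean of -0.07 ± 0.06 (SD, n = 2) and a 95% interval from -0.33 to 0.18. The array annotation is not of one mind about the notch1b probe: its gene name is notch1b, whereas its GenBank description calls the transcript homologue 1a.

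**Figure D2:**
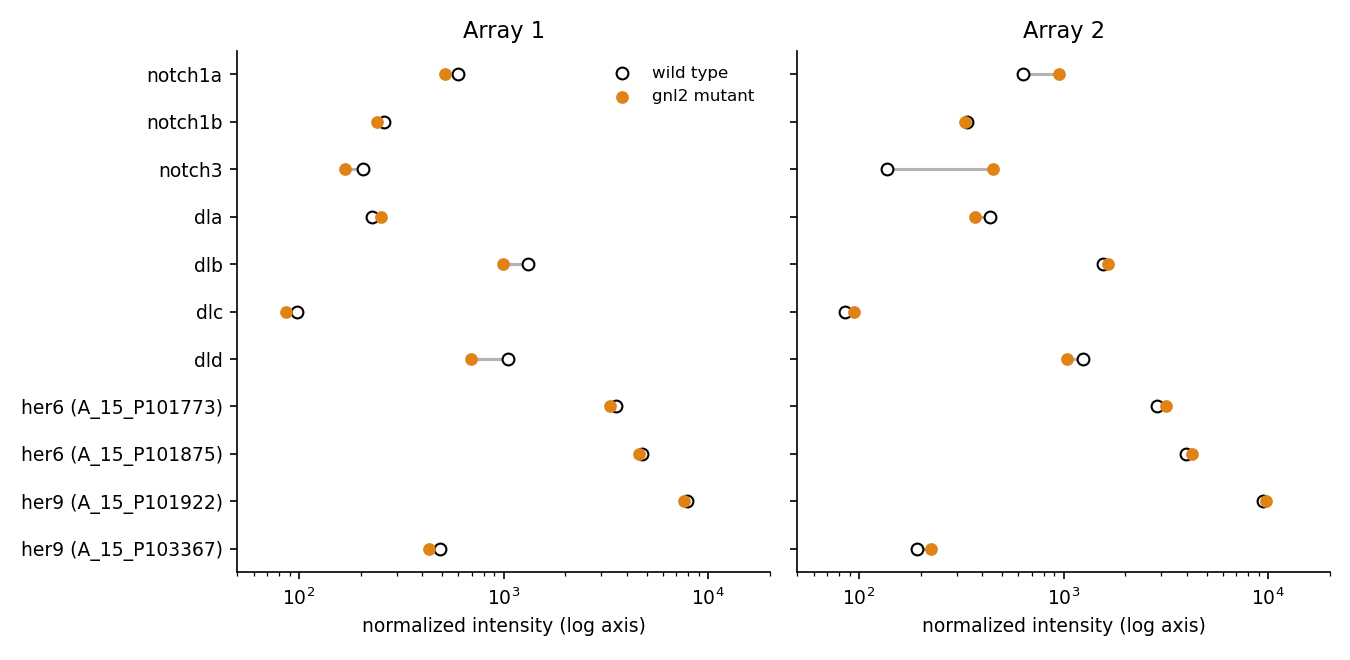
Normalized intensity after loess and Aquantile (horizontal axis, log scale) of each probe in the wild type (open circles) and the gnl2 mutant (orange circles) on array 1 (left) and array 2 (right). Levels of different probes cannot be set against each other. The widest gap between genotypes is that of notch3 on array 2, with 452 in the mutant and 137 in the wild type.

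Of the Delta ligands, dld was the gene with the lowest mean and the one with a ratio below 0 on both arrays. DeltaD takes part in lateral inhibition in the neural plate and in the somite clock. Its normalized intensities were 691 in the mutant and 1048 in the wild type on array 1, and 1037 and 1248 on array 2. The log2 ratios were -0.60 and -0.27, with a mean of -0.43 ± 0.24 (SD, n = 2), which is a ratio of 0.740. Agilent's p for single arrays was 0.000198 on array 1 and 0.0855 on array 2. The 95% interval of the mean, from -0.79 to -0.07, lay below 0 before any correction for the number of probes tested. The unadjusted p in limma was 0.0296 and the adjusted p was 1.00, so the difference did not pass the test. Without adjustment 1 of the 11 probes was thus lower in the mutant, against 1.24% of all probes tested, and 0.752% of the probes had a mean at least as low.

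Marker lists of the tissues in which dld is expressed were set beside it, and 0 of their genes were called in limma. Of the 12 tested of 14 markers of neural progenitors, 10 were lower on both arrays, against 20.3% of all genes tested, 0 were higher, against 21.2%, and 2 were split. Their median log2 ratio was -0.15, against 0.002 over all genes tested. At the brightest probe of each gene the lowest mean was that of fabp7a at -0.82 and the highest that of msi1 at -0.03. Some other probes lay above 0, as the means of the gfap probes ran from -0.25 to 0.58 and those of pax6b from -0.29 to 0.07. Lower at an unadjusted p under 0.05 in limma were 2 of the 12, fabp7a and sox2, against 1.22% of all genes tested. The summed normalized intensity was 21070 in the mutant and 28620 in the wild type on array 1, and 28970 and 35180 on array 2. The gene with the widest gap in these sums was fabp7a on each array. It read 4025 in the mutant and 6968 in the wild type on array 1, and 4493 and 8104 on array 2. Of 16 tested genes of proneural cells and neurons, 7 were lower on both arrays, against 20.3% of all genes tested, and 4 higher, against 21.2%. Their median was -0.01. At an unadjusted p under 0.05 in limma stood 4 of them, all lower, against 1.22% of all genes tested. These were neurod4 at -0.51, ascl1b at -0.39, ebf2 at -0.28 and ascl1a at -0.26, while the highest mean was that of isl2b at 0.27. The summed intensity of the 16 genes was 29340 in the mutant and 28830 in the wild type on array 1, and 33890 and 29380 on array 2. This order turned without isl2b, left out after its values were seen, as the other 15 genes summed to 10100 in the mutant and 11100 in the wild type on array 1, and to 14060 and 14680 on array 2. Of 10 tested genes of the presomitic mesoderm and tailbud, the other tissue of dld, 3 were lower on both arrays and 3 higher. The shares of all genes tested were 20.3% and 21.2%, and the median of the 10 genes was -0.0007. These 10 genes summed to 7610 in the mutant and 7141 in the wild type on array 1, and to 8144 and 7512 on array 2. Of the 10, 1 was higher at an unadjusted p under 0.05 in limma, against 1.96% of all genes tested, and 0 were lower. It was cyp26a1, with a mean of 0.55. This gene read 2035 in the mutant against 1231 in the wild type on array 1, then 1585 against 1214 on array 2. Its gap between genotypes was wider than that of the sum on array 1, and narrower on array 2. The order of the sums on array 1 thus rests on cyp26a1. The part of cell makeup in the dld ratio was not tested.

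The ligand genes dla, dlb and dlc had mean ratios nearer to 0, and each was split between the arrays. The gene dlb, expressed with dla in cells on their way to becoming neurons, had normalized intensities of 993 in the mutant and 1315 in the wild type on array 1, and 1641 and 1558 on array 2. Its log2 ratios were -0.40 and 0.08, with a mean of -0.16 ± 0.34 (SD, n = 2) and a 95% interval from -0.62 to 0.29. The mutant was lower than the wild type on array 1 by more than it was higher on array 2, and the adjusted p in limma was 1.00.

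The dla probe had the opposite order of signs. Its normalized intensities were 251 in the mutant and 228 in the wild type on array 1, and 368 and 436 on array 2. The log2 ratios of 0.14 and -0.25 had a mean of -0.05 ± 0.27 (SD, n = 2), with a 95% interval from -0.44 to 0.33. The gene dlc, a ligand of the somite clock known from the mutant beamter, had a dim probe. Its mean pixel signal on array 1 was 153 in the mutant over a background of 75 and 120 in the wild type over 48, and on array 2 it was 115 over 52 and 128 over 76. The log2 ratios were -0.18 and 0.15, with a mean of -0.01 ± 0.23 (SD, n = 2) and a 95% interval from -0.37 to 0.34. For this dim probe Agilent's processed signals gave -0.63 and 0.45. Without the offset the sign of the dlc mean turned, to 0.0044.

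The hairy-related genes her6 and her9 had mean ratios close to 0, and all their probes were split between the arrays. The protein of her6 is a repressor related to mammalian Hes1. Its probe A_15_P101773 read 3302 in the mutant and 3538 in the wild type on array 1, and 3158 and 2860 on array 2. The log2 ratios were -0.10 and 0.14, with a mean of 0.02 ± 0.17 (SD, n = 2). The other probe, A_15_P101875, gave -0.05 and 0.10, with a mean of 0.03 ± 0.10, so both her6 probes had the same signs on the same arrays. The 95% intervals ran from -0.29 to 0.33 and from -0.24 to 0.29, and as ratios from 0.819 to 1.26 and from 0.846 to 1.23.

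The repressor gene her9 is known in zebrafish for keeping parts of the neural plate free of neurons, a role in which it has been described as acting apart from Notch. Its probe A_15_P101922 read 7624 in the mutant and 7883 in the wild type on array 1, and 9764 and 9476 on array 2. The log2 ratios of -0.05 and 0.04 had a mean of -0.003 ± 0.06 (SD, n = 2), with a 95% interval from -0.26 to 0.25. The probe A_15_P103367 read 430 and 489 on array 1 and 224 and 193 on array 2, which gave ratios of -0.18 and 0.21 and a mean of 0.02 ± 0.28. Its 95% interval was wider, from -0.38 to 0.41. The her9 probes thus shared their signs on each array, with a wider gap at the second. Over all 11 probes, 7 had a 95% interval wholly within 0.5 of 0 on the log2 scale, which leaves out dld, dlb, notch1a and notch3. The share of all probes tested with such an interval was not counted, so the number marks nothing particular to these genes.

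Most of the split probes leaned to the same dye. When the sign was not turned, the mean of red over green was below 0 for 10 of the 11 probes, all but dla, where it was below 0 for 47.1% of all probes tested. Its median was -0.165 over the 11 probes and 0.0081 over all probes tested. For notch3 it was -1.01, for notch1a -0.39 and for dlb -0.24. The part of the dye in these ratios was not tested. Turning the sign removes from the mean, but not from the gap between arrays, whatever the dyes add alike on each.

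**Figure D3:**
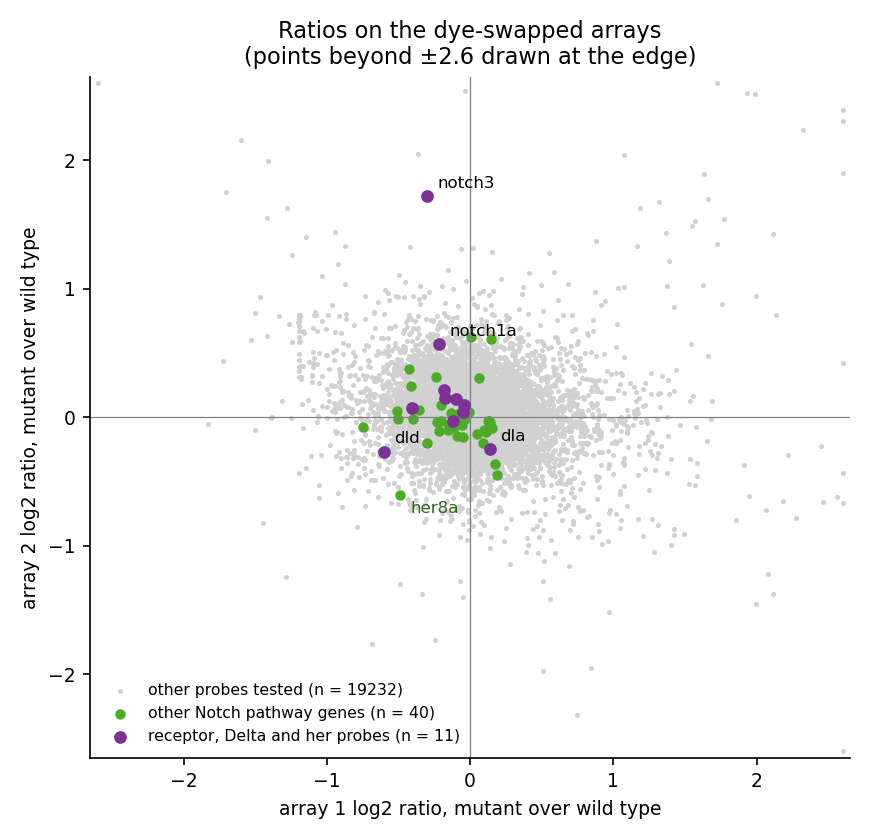
Log2 ratio of mutant over wild type on array 1 (horizontal axis) against array 2 (vertical axis) for the probes tested, with the 11 receptor, Delta and her probes in purple and the brightest probe of 40 other Notch pathway genes in green. Most purple points lie near 0 on both axes, with dld at -0.60 and -0.27 in the lower left and notch3 at -0.30 and 1.72 above the rest.

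Of 93 other genes of the pathway listed by role, 43 had a probe and 41 were tested. The median of their mean log2 ratios was -0.06, against 0.002 over all 16296 genes or transcripts tested, with array medians of -0.09 and -0.03. On both arrays 16 of the 41 genes were lower, or 39%, against 20.3% of all genes tested, and 3 were higher, or 7.32%, against 21.2%. The other 22 were split. In limma 0 of the 41 reached an adjusted p under 0.05, against 0 of all genes tested. Without adjustment 0 were higher at 0.05 and 1 was lower, or 2.44%, against 1.96% and 1.22% of all genes tested. The probes of psenen, removed for an outlier flag, and of her15.1, removed as dim, were not tested.

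Among the Jagged ligands, jag1b was higher on both arrays. Its brightest probe gave log2 ratios of 0.15 and 0.61, with a mean of 0.38 ± 0.33 (SD, n = 2) and a 95% interval from -0.06 to 0.82, while its other probe gave -0.11 and 0.66. The paralog jag1a had ratios of -0.16 and -0.10, with a mean of -0.13 ± 0.04, and 0.02 at its other probe. The gene jag2b was split, at -0.41 and 0.24, and its other probe had the same signs. The direction of jag1b was thus shared by both probes on array 2 only.

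Of the 10 tested genes that modify or cut ligands and receptors, 2 were lower on both arrays, against 20.3% of all genes tested. Higher on both were 0, against 21.2%, and 8 were split. The glycosyltransferase gene lfng, whose protein changes how Notch responds to its ligands, had log2 ratios of -0.40 and -0.01, with a mean of -0.21 ± 0.27 (SD, n = 2), and -0.008 at its other probe. The ubiquitin ligase gene mib1, needed for ligands to be active, had a mean of -0.05 ± 0.21 at its brightest probe and 0.08 at its other probe.

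In the nuclear complex 6 of 10 genes were lower on both arrays, against 20.3% of all genes tested, and 1 was higher, against 21.2%. Their median was -0.10. The corepressor gene ncor1 had log2 ratios of -0.21 and -0.10, with a mean of -0.16 ± 0.08 (SD, n = 2), and the corepressor gene ctbp1 had a mean of -0.12 ± 0.04. The gene rbpja, which encodes the DNA-binding protein of the pathway, had -0.20 and -0.03 at its brightest probe, and its 3 probes had means between -0.31 and -0.05. The gene snw1, encoding a splicing and transcription cofactor, was the one higher on both, at 0.009 and 0.62, with a mean of 0.32 ± 0.44. Its value on array 1 was close to 0, so array 2 decides its mean.

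Among the modulators nrarpb and nrarpa, feedback inhibitors that Notch signalling itself switches on, the values differed between arrays. The gene nrarpb read 135 in the mutant and 227 in the wild type on array 1, and 175 and 184 on array 2. Its log2 ratios were -0.75 and -0.07, with a mean of -0.41 ± 0.47 (SD, n = 2) and a 95% interval from -0.99 to 0.17. The gene nrarpa was split at -0.42 and 0.37 at its brightest probe, with a mean of -0.03 ± 0.56. Its other probes had the same signs but lay nearer to 0, at -0.07 and 0.05, and at -0.04 and 0.09. Neither gave a direction beyond the spread between arrays.

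Of the 13 other her, hes and hey genes tested, 5 had ratios below 0 on both arrays, against 20.3% of all genes tested, and 1 above 0, against 21.2%. The 7 others were split, and the median of the 13 was -0.06. The gene her8a had the lowest mean and was the 1 with an unadjusted p under 0.05. It read 1750 in the mutant and 2455 in the wild type on array 1, and 3233 and 4903 on array 2. Its log2 ratios were -0.49 and -0.60, with a mean of -0.54 ± 0.08 (SD, n = 2), an unadjusted p of 0.00535 and an adjusted p of 1.00 in limma. Agilent's p for single arrays was 0.00238 and 0.00027 at this probe. The other her8a probe gave 0.13 and 0.02, with Agilent p of 0.72 and 0.949, so the probes of this gene did not share a direction. That other probe was dim on array 2, with a mean pixel signal of 125 over a background of 52 in the mutant and 155 over 76 in the wild type.

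The remaining named genes of this family had mean ratios nearer to 0 than that of her8a at its brightest probe. The gene her3, which like her9 acts in the early neural plate, had log2 ratios of -0.50 and -0.009, with a mean of -0.26 ± 0.35 (SD, n = 2). The gene helt, known from the mouse midbrain, had -0.30 and -0.20, with a mean of -0.25 ± 0.07 and a 95% interval from -0.50 to 0.007. The somite clock gene her1 had a mean of -0.13 ± 0.14, whereas her12, also expressed in the tailbud, was higher on both arrays with a mean of 0.18 ± 0.17. None of these had an unadjusted p under 0.05 in limma.

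**Figure D4:**
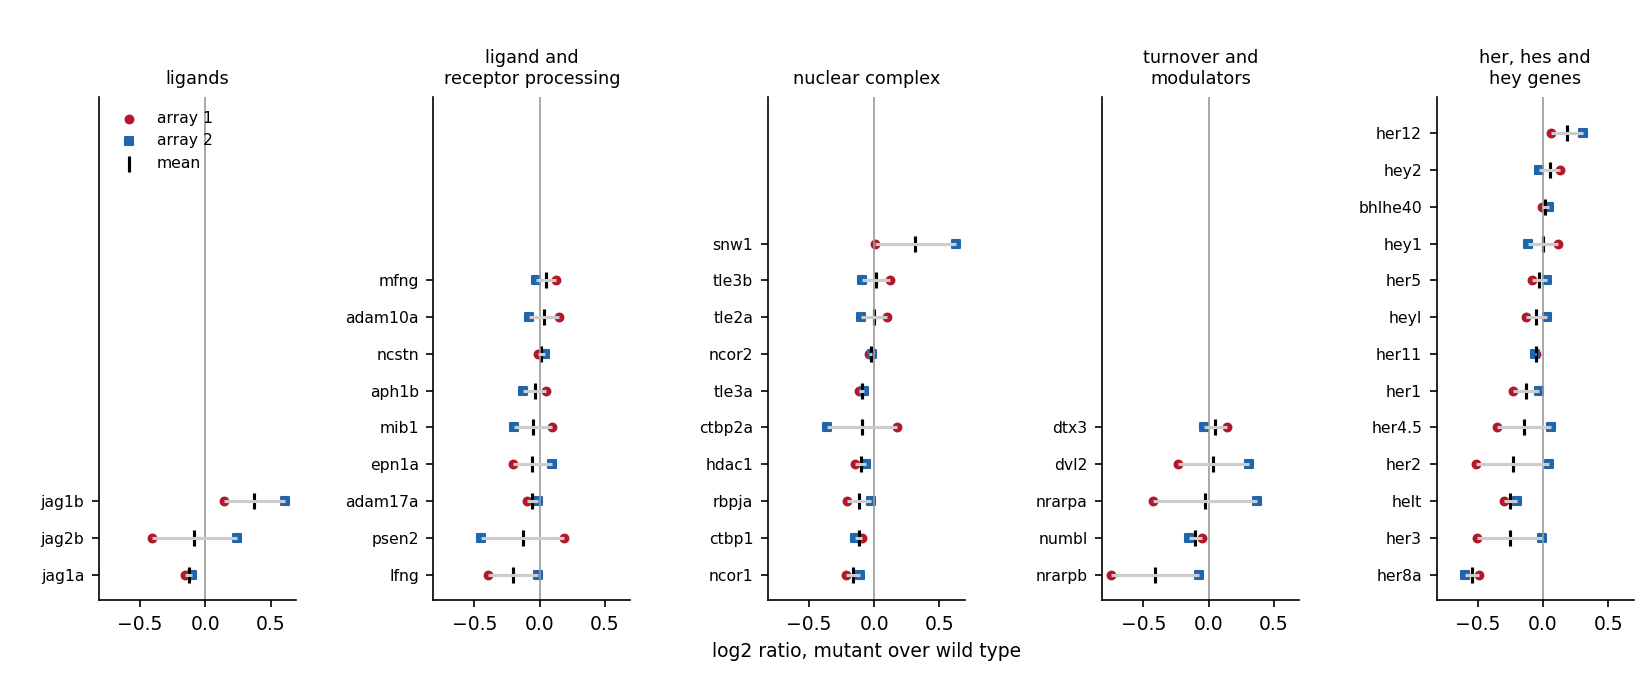
Log2 ratio of mutant over wild type (horizontal axis) for 40 other Notch pathway genes in 5 panels by role, with array 1 as red circles, array 2 as blue squares and the mean as a black bar. The gene her8a lies below 0 on both arrays at its brightest probe.

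The probes nearest to notch3 over both arrays were named by their distance in log2 ratio. They were an unnamed transcript described as similar to ferritin middle subunit (TC291229) at a distance of 0.33, rpf2, a ribosome assembly factor gene, at 0.415, and TC278994 at 0.477. A transcript described as similar to activating transcription factor 4 (ENSDART00000023137) lay at 0.518 and TC283930 at 0.591. The gene rpf2 had log2 ratios of -0.42 and 1.32, so that its genotypes changed places between the arrays as those of notch3 did. Likeness over 2 arrays describes these arrays only.

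**Figure D5:**
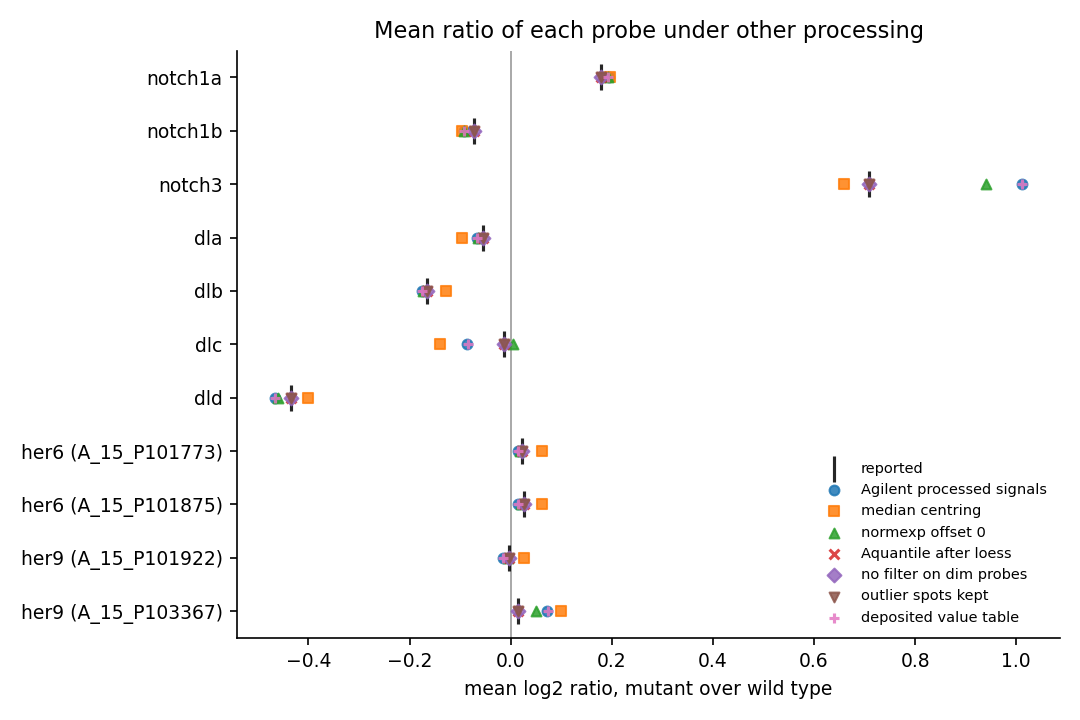
Mean log2 ratio of mutant over wild type (horizontal axis) of each of the 11 probes as reported (black bar) and under 7 other ways of processing (coloured symbols). The dld mean stays between -0.47 and -0.40, while that of notch3 runs from 0.66 to 1.01.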

How the data were processed

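Agilent Feature Extraction 7.5.1 made the deposited intensity columns, per the file headers: for each spot the mean signal of its pixels and the median of its local background. It also gave deposited processed intensities (detrended, LOWESS dye normalization), the log10 ratio of red over green and a p-value for 1 array. The deposited value table holds the same log10 ratios, differing by at most 0.00498 and 0.00499 on the arrays, with medians of 0 and 0.

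From these, signals were corrected by normexp (offset 50) and normalized by loess (span 0.3) with limma 3.58.1 (R 4.3.3), where control spots and outliers had weight 0. Outlier flags removed 749 probes, and 1462 were not well above background in either genotype on both arrays. Ratios were turned for the dye swap and tested with lmFit and eBayes (2-sided, Benjamini-Hochberg over 19284 probes, threshold 0.05), with 1 residual degree of freedom per probe and 3.49 in total. Signal over background was above the limit at 92.7% to 96.4% of gene probes per channel, and the number of arrays limits the precision. Levels are intensities after loess and Aquantile. Current names came from the GRCz12tu reference table by accession, symbol or synonym. That table gives the transcript of the dld probe another symbol (dldh, with dld as a synonym), and the array's own name and description, deltaD, were kept.

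The Notch genes and the lists were chosen with earlier results of these data known. A pathway gene or a marker was represented by its brightest probe among those tested. Named were the 12 genes with the largest mean among those of 1 direction on both arrays, the 4 with the widest gap between arrays and the 5 nearest to notch3. Of these, 1 gene is not reported here, though the counts and medians include it. Alternatives were Agilent's processed signals, median centring, no offset, Aquantile, no filter, outliers kept, the value table, all probes of a gene, Agilent's error model and leaving out each array.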

Additional observations from a re-analysis of the deposited data

How the results depend on the processing

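No paired analysis was possible because none is left to add: each ratio tested is already the difference of both genotypes within 1 array. The count of 0 probes called at an adjusted p under 0.05 in limma became 34 higher and 4 lower with median centring. Agilent's single-array error model, where the spread between arrays is left out, gave 98 higher and 35 lower. Its threshold was another one, an unadjusted p under 0.01 on both arrays in 1 direction. None of the 11 Notch probes was called under any of these. With median centring 1 of them was higher on both arrays in place of 0, 3 were lower in place of 2 and 7 were split in place of 9. Of the other pathway genes, 5 were then higher in place of 3 and 14 lower in place of 16. The cause was not tested. The sign of the mean turned for dlc without the normexp offset (0.0044) and for her9 A_15_P101922 with median centring (0.0264), and for no other probe under the 7 ways of processing. The mean of dld ran from -0.467 to -0.401 and that of notch3 from 0.66 to 1.01. Leaving out 1 array gives a value without a test, and no counts. These values ran from -0.21 to 0.57 for notch1a, -0.30 to 1.72 for notch3, -0.25 to 0.14 for dla, -0.405 to 0.0751 for dlb and -0.18 to 0.15 for dlc. They ran from -0.10 to 0.14 and -0.045 to 0.0962 for her6, and from -0.0483 to 0.0433 and -0.184 to 0.215 for her9. For dld and notch1b the sign held without either array, as it must for a probe below 0 on both. The pathway median lay between -0.09 and -0.03 over all its alternatives. Signals near background limit dlc.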

Other observations

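Some probes outside the rule carry descriptions of Notch genes. A probe described as the zebrafish Notch 1 protein (TC294040) had log2 ratios of -0.004 and -0.16, with a mean of -0.08 ± 0.11 (SD, n = 2). It was below 0 on array 2, where the notch1a probe was above 0, at 0.57. One described as DeltaA (TC292466) had 0.07 and 0.11, with a mean of 0.09 ± 0.03. This DeltaA probe was well above background in the wild type on 1 of the arrays only. It was above 0 on both arrays, where the dla probe was split. A probe described as similar to Hes6 (ENSDART00000009493) had 0.04 and -0.12, and one similar to rat Hes2 (TC295511) had -0.23 and -0.12, with a mean of -0.18 ± 0.08. The 3 probes that the file calls hes5 had means of -0.04, 0.01 and 0.001. None of these reached an adjusted p under 0.05 in limma, where each had 1.00.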
